A study of Mus musculus with 3 samples.

Results

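The 8 genes examined here encode the B7 costimulatory and checkpoint molecules that an antigen-presenting cell shows to a T cell. They were chosen by name, with earlier results of these data known, as Cd80, Cd86, Cd274, Pdcd1lg2, Icosl, Cd276, Vsir and Havcr2, and all 8 were found among the 55536 gene rows of the deposited tables, of which 22028 are protein-coding. Havcr2, which encodes TIM-3, belongs to the TIM family of receptors and is not itself a B7 gene.

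A T cell that meets its antigen also reads signals from B7 proteins on the presenting cell. Cd80 and Cd86 engage the activating receptor Cd28 and the inhibitory receptor Ctla4, and Icosl engages Icos. Cd274 (PD-L1) and Pdcd1lg2 (PD-L2) engage the inhibitory receptor Pdcd1 (PD-1), while Vsir (VISTA) and Cd276 (B7-H3) are B7 relatives with mostly inhibitory roles. Macrophages are known to display several of these proteins after exposure to bacterial products and interferons.

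RNA of the cytosolic fraction, depleted of ribosomal RNA, was sequenced from bone marrow-derived macrophages, which are phagocytes grown in culture from marrow, of C57BL/6J mice. All libraries came from cells given lipid A, the part of bacterial lipopolysaccharide that Tlr4 senses, at 100 ng/ml for 12 h, then left without it for 12 h and collected at 0 min of a second exposure. The 3 libraries, biological replicates 1, 2 and 3, share a donor identifier, form the sole group, and have no untreated group beside them here, so no effect of lipid A can be read from any value. The labels do not say whether the replicates came from separate animals, so the spread among these libraries may be technical. The sign-flip p-values below rest on these libraries alone. The chi-square p-values below compare the libraries with counting error only and hold no estimate of the spread among replicates.

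The libraries of replicates 1, 2 and 3 assigned 28981178, 53119941 and 46783133 expected counts to genes, and a count of 0 allows up to 0.104, 0.0565 and 0.0641 CPM, counts scaled to library size. The macrophage label held, with 10 of 10 macrophage markers at 10 TPM or more in every library and summed levels of 4914 to 5852 TPM, where TPM is the deposited abundance, scaled for both transcript length and library size. Summed dendritic cell markers reached 2.25 to 4.28 TPM (1 of 8 at 1 TPM or more), B cell markers 5.29 to 17.3 TPM (2 of 6) and T and NK cell markers 17.7 to 19.0 TPM (1 of 8, Cd4). Of the defining markers of those other cells, Cd79a and Klrb1c had 0 counts in every library, and Cd3e and Cd209a had 0 counts in replicates 1 and 2. The markers of other cells that reached 1 TPM were Batf3 among dendritic cell markers (2.01, 1.35 and 3.12 TPM in replicates 1, 2 and 3), Cd79b (1.04, 1.35 and 2.46 TPM) and Cd22 (16.21, 3.94 and 7.88 TPM) among B cell markers, and Cd4. Their part in the levels below was not tested. Replicate 3 stood apart in nuclear RNA, with 1343 TPM of the nuclear long non-coding RNA Malat1 against 158 and 91.0 TPM in replicates 1 and 2.

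Cd274 dominated the family. Its transcript made up 73.42%, 68.67% and 66.89% of the summed TPM of the 8 genes in replicates 1, 2 and 3 (69.7% ± 3.38, SD, n = 3). The sum itself was 283, 202 and 242 TPM. Vsir supplied 16.7% ± 3.81, Cd86 7.75% ± 1.03 and Havcr2 2.69% ± 0.660, and Icosl and Cd80 supplied 1.60% ± 0.242 and 1.56% ± 0.178. Pdcd1lg2 and Cd276 were close to the limit of detection.

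Reading the 8 genes against the transcriptome, 6 of 8 reached 1 TPM in every library, as did 41.2% of protein-coding genes and 17.1% of all genes. At 10 TPM the count was 3 of 8 (Cd274, Vsir and Cd86), beside 17.1% of protein-coding genes, and at 100 TPM it was 1 of 8 (Cd274), beside 1.73%. The median over the 8 genes was 5.21, 5.37 and 4.90 TPM, against 0.130, 0.130 and 0.210 TPM over all protein-coding genes. Protein-coding genes held 27.2% to 31.6% of all TPM, so these levels depend on what they are normalised to. Rescaled to protein-coding genes alone, 6 of 8 reached 10 TPM. This rescaling raises every protein-coding gene, so the 17.1% above is not the background for that count, and the rescaled share is not given here.

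**Figure D1:**
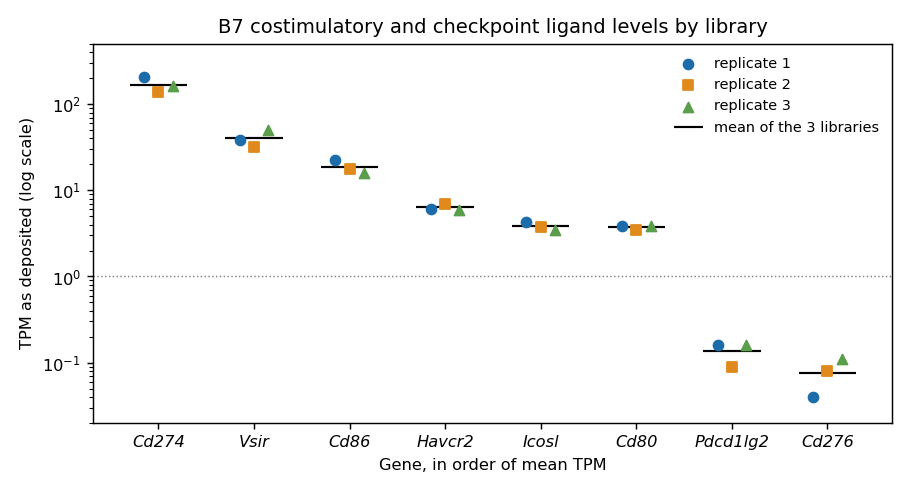
TPM as deposited (log axis) of the 8 genes in each of the 3 libraries, with a bar at the mean and a dotted line at 1 TPM. Cd274 sits above 100 TPM in every library, 5 genes lie between 1 and 100 TPM, and Pdcd1lg2 and Cd276 lie near 0.1 TPM.

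Among the costimulatory ligands, Cd86 was the more abundant of the pair that binds Cd28 and Ctla4. Cd86 (chr16:36603869-36666081, minus strand, GRCm38) held 22.50, 17.53 and 16.03 TPM in replicates 1, 2 and 3, from 2382, 3805 and 2547 expected counts. Cd80 (chr16:38455561-38496335, plus strand) held 3.87, 3.48 and 3.86 TPM, from 308, 584 and 504 counts. Every Cd86 value lay above every Cd80 value.

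Per unit of effective length, Cd86 exceeded Cd80 by 5.81-fold (95% exact counting interval 5.16 to 6.56), 5.04-fold (4.61 to 5.50) and 4.15-fold (3.77 to 4.57) in replicates 1, 2 and 3. The within-library difference in log2(TPM + 1) was 2.04 ± 0.23 (SD, n = 3). An exact two-sided sign-flip permutation test gave p = 0.25, the smallest that 3 libraries allow, so size and spread carry the comparison. The intervals of replicates 1 and 3 do not overlap, and these intervals cover counting error only.

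Cd86 and Cd80 lie on the same chromosome, 1789479 bases apart, with 46 annotated genes between them, 25 of them protein-coding. Icosl, the ligand of Icos, held 4.26, 3.79 and 3.42 TPM (chr10:78069302-78083913, plus strand), from 521, 943 and 612 counts. Icosl and Cd80 could not be ordered: their ranges overlapped, and the log2(TPM + 1) difference of Icosl minus Cd80 was 0.11, 0.10 and -0.14 in replicates 1, 2 and 3 (exact two-sided sign-flip permutation p = 1.00). Cd86 ranked 2512 of the 22028 protein-coding genes by mean TPM, while Icosl and Cd80 ranked 6942 and 7010.

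Of the inhibitory ligands, Cd274 stood at percentile 99.0 of protein-coding genes by mean TPM and its neighbour Pdcd1lg2 at percentile 49.4. Cd274 (chr19:29367455-29388095, plus strand) held 207.76, 139.03 and 161.63 TPM in replicates 1, 2 and 3, from 33797, 45609 and 38966 counts, and ranked 229 of 22028. It alone took 0.117%, 0.0859% and 0.0833% of all gene counts (95% Wilson intervals 0.115 to 0.118, 0.0851 to 0.0867 and 0.0825 to 0.0841). Pdcd1lg2 (chr19:29410919-29471161, plus strand) held 0.16, 0.09 and 0.16 TPM, from 11, 12 and 16 counts, and ranked 11140.

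These PD-1 ligands are adjacent: 22823 bases separate Cd274 from Pdcd1lg2, both run in the same direction, and 0 annotated genes lie between them. Per unit of effective length Cd274 exceeded Pdcd1lg2 by 1276-fold (95% exact counting interval 713 to 2556), 1595-fold (913 to 3088) and 1020.3-fold (628 to 1785) in replicates 1, 2 and 3. The 3 intervals overlap, so no difference in this ratio between libraries was detectable at 11 to 16 counts of Pdcd1lg2. In bulk RNA, fewer cells that express a gene and less RNA per cell cannot be told apart.

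The proximal promoters of this adjacent pair are printed because the genes share a locus and differ so far in level. Each run is the 250 bases upstream of the RefSeq start on the plus strand of GRCm38.p6, chr19:29367188-29367437 for Cd274 and chr19:29410669-29410918 for Pdcd1lg2, with CpG dinucleotides in capitals.
Cd274 promoter: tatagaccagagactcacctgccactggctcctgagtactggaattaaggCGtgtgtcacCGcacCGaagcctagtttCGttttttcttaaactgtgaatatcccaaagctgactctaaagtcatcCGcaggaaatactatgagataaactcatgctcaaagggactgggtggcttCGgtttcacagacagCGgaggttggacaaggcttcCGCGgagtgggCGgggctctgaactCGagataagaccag
Pdcd1lg2 promoter: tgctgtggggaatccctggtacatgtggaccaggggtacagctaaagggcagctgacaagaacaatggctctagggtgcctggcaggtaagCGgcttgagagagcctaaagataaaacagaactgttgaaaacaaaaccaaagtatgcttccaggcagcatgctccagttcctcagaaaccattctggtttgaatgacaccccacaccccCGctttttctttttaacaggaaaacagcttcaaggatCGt
The Cd274 window held 11 CpG at 50.4% GC, and the Pdcd1lg2 window held 3 CpG at 48.4% GC. Over 32851 RefSeq promoters of the same length the median was 6 CpG and 52.4% GC, and 64.4% of promoters had fewer CpG than Cd274 and 29.0% fewer than Pdcd1lg2.

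Among the 7 genes with a RefSeq promoter, the barely detected Cd276 had the most CpG, 29 in its window, more than 93.2% of promoters. Icosl had 23, more than 86.7% of promoters, while Vsir had 9, Cd80 3 and Havcr2 2. Patterns of letters for 3 kinds of factor were searched on both strands of the same windows: GAAANNGAAA for interferon regulatory factors, TTCNNNGAA for STAT proteins and GGGANNTTCC for NF-kB. They occur in 2.98%, 7.02% and 1.21% of all promoters. None of the 7 windows held any of them, which says only that these letters are not within 250 bases of the starts used.

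Vsir was the second most abundant of the 8 genes. It held 38.22, 31.52 and 50.49 TPM in replicates 1, 2 and 3 (chr10:60346851-60372684, plus strand), from 7383, 11839 and 14704 counts, and ranked 1180 of the protein-coding genes. Cd274 exceeded it in every library, by 2.06 ± 0.38 in log2(TPM + 1), and Vsir exceeded Cd86 by 1.05 ± 0.48 (SD, n = 3, exact two-sided sign-flip permutation p = 0.25 for each, the smallest possible). Neither pair of ranges overlapped.

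Cd276, by contrast, was barely covered. It held 0.04, 0.08 and 0.11 TPM (chr9:58524298-58555437, minus strand), from 5, 6 and 8 counts. The deposited credibility intervals of its TPM ran from 0.0446 to 0.791, 0.0309 to 0.442 and 0.0491 to 0.627 in replicates 1, 2 and 3, and those of Pdcd1lg2 from 0.0907 to 0.288, 0.0495 to 0.150 and 0.0978 to 0.253. In replicate 1 the Cd276 TPM of 0.04 lies below its interval, while the deposited posterior mean TPM of 0.350 lies inside it. The order of Pdcd1lg2 and Cd276 therefore remained undetermined, with overlapping ranges and a log2(TPM + 1) difference of 0.08 ± 0.07 that became -0.16 with the deposited posterior mean TPM.

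Havcr2 encodes a receptor that macrophages themselves carry. It held 6.15, 6.95 and 5.94 TPM (chr11:46454935-46481255, plus strand), from 733, 1675 and 1052 counts. Its level lay between Cd86 and Icosl in every library, with log2(TPM + 1) differences of 1.41 ± 0.27 for Cd86 minus Havcr2 and 0.61 ± 0.15 for Havcr2 minus Icosl (SD, n = 3). The order of the 8 genes was thus Cd274, Vsir, Cd86 and Havcr2, then Icosl and Cd80 together, then Pdcd1lg2 and Cd276 together. Between Cd80 and Pdcd1lg2 the log2(TPM + 1) difference was 2.06 ± 0.02, which the pseudocount of 1 compresses in size and spread. With a pseudocount of 0.1 it was 4.03, and the TPM ratios were 24.2, 38.7 and 24.1 in replicates 1, 2 and 3.

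None of the 7 genes with enough counts to test moved by 2-fold or more between libraries, and Cd276 had too few counts to be tested. A chi-square test of rounded counts against TMM library sizes, with Benjamini-Hochberg adjustment over 13636 genes, called 0 of these 7 at a ratio of at least 2, where it called 16.2% of all genes and 8.12% of protein-coding genes. With only 7 genes, a count of 0 is close to that background and does not mark them as steady. Their median ratio of highest to lowest library was 1.49, against 1.27 for the protein-coding genes tested. The test allows for counting error only. Without replicate 3 the number of genes called fell to 608, against 2203 with all libraries. At any ratio, 5 of 7 had an adjusted p of at most 2.55e-13 (Cd274, Vsir, Cd86, Havcr2 and Icosl), where 75.6% of all genes passed 0.05, so their share is close to the background. At a ratio of at least 1.5 the count was 2 of 7 (Cd274 and Cd86), with a background of 27.2%.

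The directions of these departures differed from gene to gene. Cd274 stood at 1210.1, 864 and 798 TMM-scaled CPM in replicates 1, 2 and 3, a ratio of 1.52 between the highest and lowest library. Cd86 stood at 85.3, 72.1 and 52.1 CPM, a ratio of 1.64. Both were highest in replicate 1 and lowest in replicate 3 on this scale, whereas in TPM the lowest Cd274 value was that of replicate 2. Vsir went the other way, at 264, 224 and 301 CPM, highest in replicate 3 (ratio 1.34), and Havcr2 was highest in replicate 2 at 26.2, 31.7 and 21.5 CPM (ratio 1.47).

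Icosl stood at 18.7, 17.9 and 12.5 CPM (ratio 1.49). Cd80 was the steadiest of the 8, at 11.0, 11.1 and 10.3 CPM, with a coefficient of variation of 3.89% and an adjusted chi-square p of 0.506. The coefficient was 14.6% for Vsir and between 19.2% and 26.5% for the other 6 genes. Across the 9407 protein-coding genes that average at least 1 TPM the median was 11.0%, with quartiles of 6.94% and 16.5%. Pdcd1lg2 had a ratio of 1.74 and an adjusted p of 0.433 at its low counts.

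**Figure D2:**
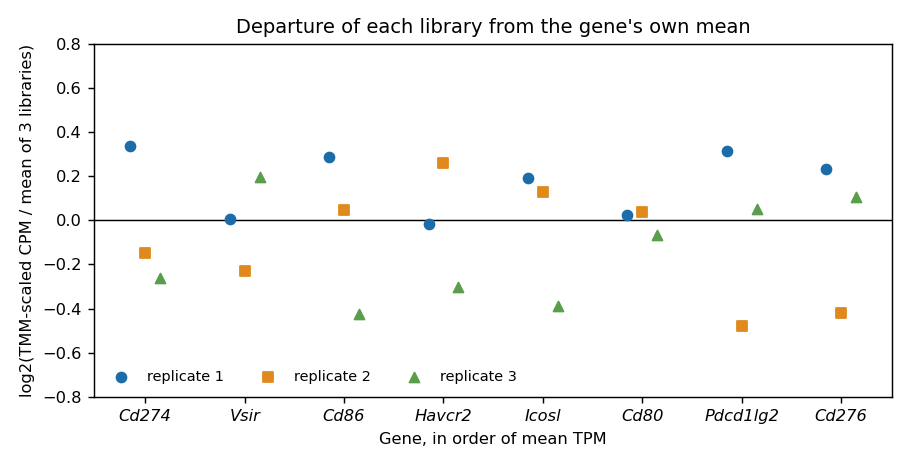
Log2 ratio of each library's TMM-scaled CPM to the mean of the 3 libraries, for the 8 genes in order of mean TPM. Cd274, Cd86 and Icosl are highest in replicate 1 and lowest in replicate 3, Vsir is highest in replicate 3, and the Cd80 points lie within 0.1 of the mean.

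The spliced forms of Cd80 bear on its protein, because one annotated form skips a coding exon. Cd80-201 and Cd80-202, which share every coding segment of 918 bases and differ in where they end, held 49.2%, 71.2% and 58.5% and 28.1%, 22.0% and 31.3% of Cd80 TPM in replicates 1, 2 and 3. Cd80-203, with a coding length of 636 bases, lacks exon 3 and held 22.8%, 6.79% and 10.3%. The read-derived table gave Cd80-203 19.2%, 9.27% and 10.3%.

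The exon that Cd80-203 lacks is shown with the junctions that tell the forms apart. It spans 282 bases, chr16:38479064-38479345 on the plus strand of GRCm38 in GENCODE M21, is coding throughout and a multiple of 3 in length, and belongs to the part of the gene that encodes the membrane-proximal immunoglobulin domain. In the junctions, capitals mark the upstream exon.
Cd80 exon: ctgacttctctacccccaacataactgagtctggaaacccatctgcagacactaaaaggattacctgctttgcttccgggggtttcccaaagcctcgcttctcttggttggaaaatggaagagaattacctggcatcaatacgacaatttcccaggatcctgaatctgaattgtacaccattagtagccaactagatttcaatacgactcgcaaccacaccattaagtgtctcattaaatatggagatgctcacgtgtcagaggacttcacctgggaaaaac
Cd80-201 junction: AGTTGTCCATCAAAGctgacttctctaccc
Cd80-203 junction: AGTTGTCCATCAAAGccccagaagaccctc
The estimated reads behind the shorter form were few, 21 of 308, 12 of 584 and 15 of 504 in replicates 1, 2 and 3. As shares of counts these are 6.82% (95% Wilson interval 4.50 to 10.2), 2.05% (1.18 to 3.56) and 2.98% (1.81 to 4.85), lower than the TPM shares because the form is short. Replicate 1 was the highest on each of these measures, though its counting interval overlaps that of replicate 3.

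Vsir also had coding forms that differ. Vsir-201, with a coding length of 927 bases, held 77.6%, 75.5% and 77.3% of Vsir TPM, and Vsir-202, which starts from its own first exon and has a coding length of 681 bases, held 14.9%, 15.7% and 12.0%. Vsir-203 differs from Vsir-201 by 3 bases at the start of exon 6, where a pair of splice acceptors lie 3 bases apart (positions 60368529 and 60368532 on chromosome 10), and held 6.16%, 4.79% and 8.61%. The sequences across that junction show the 3 bases that are kept or lost, with the upstream exon in capitals.
Vsir-201 junction: GGTGAGGATGGACAGcagcaacacccaagg
Vsir-203 junction: GGTGAGGATGGACAGcaacacccaaggaat
Vsir-202 uses the same downstream acceptor as Vsir-203.

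The deposited tables divided Vsir differently. Together Vsir-202 and Vsir-203 held 21.1%, 20.5% and 20.6% in the alignment-derived table and 26.7%, 24.3% and 25.2% in the read-derived table, so the share of the downstream acceptor was 20.7% ± 0.303 and 25.4% ± 1.21 (SD, n = 3). Vsir-203 alone, however, was at 0%, 0% and 0.137% in the read-derived table, which placed that share in Vsir-202. The retained-intron form Vsir-205 held 0%, 2.94% and 0.700% in the alignment-derived table and 10.4%, 23.4% and 14.9% in the read-derived one. Vsir-201 led in both tables, at 61.3%, 51.7% and 56.9% in the read-derived one.

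The retained-intron share of Icosl differed between libraries. Icosl-201 held 97.2%, 98.8% and 90.2% of Icosl TPM in replicates 1, 2 and 3. The retained-intron forms Icosl-202 and Icosl-204 together held 0.920%, 0.50% and 9.20%, and by counts 3 of 521 (0.576%, 95% Wilson interval 0.196 to 1.68), 3 of 943 (0.318%, 0.108 to 0.931) and 43 of 612 (7.03%, 5.26 to 9.33). Replicate 3 was the high one, and its interval does not overlap the others.

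Replicate 3 was also high in unspliced and nuclear RNA in general. Retained-intron transcripts held 2.82%, 2.94% and 4.49% of the TPM of all protein-coding genes, and the nuclear RNA Neat1 stood at 16.8, 10.4 and 91.4 TPM. The part of this RNA in the Icosl values was not tested. The read-derived table gave retained-intron shares of 0.964%, 1.46% and 15.7% for Icosl.

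The other 5 genes had one leading form each, or too few counts to tell. Cd86-201 held 94.4%, 96.1% and 95.3% of Cd86 TPM, the rest going to non-coding processed transcripts. Havcr2-201 and Pdcd1lg2-201 held 100.0%, and the second annotated form of each gene had 0 counts in every library. In Havcr2 that second form has a coding length 147 bases shorter. Cd274 has a single annotated transcript, Cd274-201, of 3622 bases. Cd276-201 held 100.0%, 24.2% and 33.2% of Cd276 TPM in replicates 1, 2 and 3, and the short form Cd276-204, of 346 bases, held 0%, 75.8% and 66.8%. These shares rest on 5, 5.27 and 7.37 estimated counts for Cd276-201 and on 0, 0.730 and 0.630 for Cd276-204, under 1 count in each library.

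**Figure D3:**
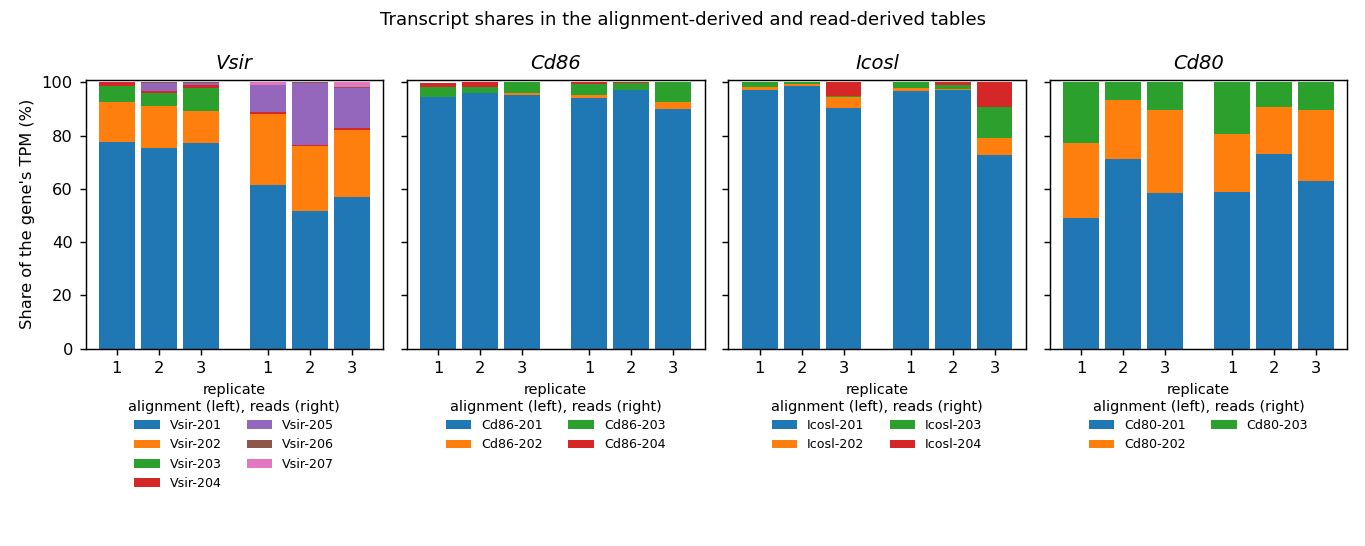
Share of each gene's TPM (percent, stacked) held by the annotated transcripts of Vsir, Cd86, Icosl and Cd80 in the 3 libraries, from the alignment-derived table (left bars) and the read-derived table (right bars). The form numbered 201 leads in every bar of these 4 genes, retained-intron Vsir-205 is larger in the read-derived bars, and the retained-intron forms of Icosl appear mainly in replicate 3.

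Several of the 8 genes overlap a gene on the opposite strand, and the sources used here do not say whether reads were counted by strand. Cd274 overlaps the antisense gene AC119228.1, which held 1.30, 0.49 and 8.69 TPM in replicates 1, 2 and 3, far below Cd274 in each. Vsir lies inside Cdh23, a cadherin gene, which held 0.12, 0.07 and 1.08 TPM. Pdcd1lg2 overlaps the antisense gene A930007I19Rik, whose 57, 54 and 84 counts exceed the 11, 12 and 16 counts of Pdcd1lg2, so reads of the pair cannot be told apart with certainty. Replicate 3 was again the high one for AC119228.1 and Cdh23.

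The 12 receptors listed here were mostly absent, with Cd28 as an exception. The list also holds receptors of other ligands, such as Btla, which binds Tnfrsf14, and Tigit, which binds Pvr. Counts over the list are therefore not limited to receptors of the genes examined here. Of these 12 genes, 3 (Cd28, Selplg and Rgmb) reached 1 TPM in every library, beside 41.2% of protein-coding genes. Another 4 (Ctla4, Pdcd1, Tigit and Cd96) had 0 counts in every library, as did 7222 of the 22028 protein-coding genes. Cd28, the activating receptor for Cd80 and Cd86, held 27.13, 25.47 and 27.78 TPM, above both of its ligands in each library. Its coding form Cd28-201 took 99.7%, 99.9% and 98.7% of it.

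The T cell genes beside which Cd28 is usually seen were not at that level. Cd3e held 0.00, 0.00 and 0.04 TPM, and Cd3d and Cd3g averaged 0.00667 and 0.0100 TPM, while Cd4, which some mouse macrophages also express, held 17.73, 17.70 and 18.90 TPM. Selplg, an adhesion protein that binds Vsir at low pH, averaged 80.8 ± 9.82 TPM, and Rgmb, which binds Pdcd1lg2, averaged 3.97 ± 0.740 TPM (SD, n = 3). Lag3, an inhibitory receptor, ranged more widely at 3.36, 0.94 and 1.70 TPM. Icos, Btla, Cd226 and Igsf11 averaged 0.0267 to 0.0800 TPM.

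Of the TIM family and TIM-3 partners, 3 of 6 reached 1 TPM in every library, beside 41.2% of protein-coding genes. The partners were those 3: Lgals9 (galectin-9) at 233 ± 24.0 TPM, Hmgb1 at 39.3 ± 4.65 TPM and Ceacam1 at 3.37 ± 0.378 TPM (SD, n = 3). The other TIM genes were at or near 0, with Havcr1 at 0.0100, Timd4 at 0.0167 and Timd2 at 0 counts, so Havcr2 was the one TIM gene above 1 TPM. Among other B7 and butyrophilin genes 0 of 6 reached 1 TPM, and Vtcn1, Ildr2 and Btn1a1 had 0 counts in every library, with Btn2a2 at a mean of 0.00333 TPM and Btnl2 and Btnl9 at 0.0333 and 0.0267 TPM.

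Other costimulatory and inhibitory ligands gave the scale on which the 8 genes can be placed. Of 8 other costimulatory ligands, 5 reached 1 TPM in every library, beside 41.2% of protein-coding genes. The highest were Tnfrsf14 at 81.2 ± 15.2 TPM, the adhesion ligand Icam1 at 75.5 ± 4.52 TPM and Cd48 at 70.4 ± 7.65 TPM, all above Cd86 (SD, n = 3). Tnfrsf14 (HVEM) is listed here as costimulatory, though it is also the ligand of the inhibitory receptor Btla. Tnfsf4 and Tnfsf18 averaged 0.0700 and 0.0633 TPM, and Cd70 had 0 counts. Of 8 other inhibitory ligands 5 also reached 1 TPM. Cd47, the signal that restrains phagocytosis, averaged 162 ± 33.6 TPM beside 169 ± 35.0 TPM for Cd274.

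Fgl2, a secreted inhibitor of T cells, exceeded Cd274 in every library but was far apart between libraries, at 568.57, 198.13 and 327.32 TPM in replicates 1, 2 and 3. Pvr, the ligand of Tigit, averaged 6.23 ± 0.440 TPM (SD, n = 3). Nectin3 and Fgl1 had 0 counts in every library, and Vsig4 averaged 0.00667 TPM. The list medians were 8.23 ± 0.620 TPM for the costimulatory and 3.39 ± 0.720 TPM for the inhibitory ligands, against 5.16 ± 0.238 TPM for the 8 genes.

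Transcripts of the machinery known to act on these ligands were present. All 14 genes listed for interferon, JAK-STAT and NF-kB signalling, which is known to induce Cd274 and Cd80, were at 10 TPM or more in every library. The same held for 17.1% of protein-coding genes. The part of this signalling in the Cd274 and Cd80 levels was not tested. Stat2, a transcription factor of the interferon response, held 167.41, 107.78 and 175.68 TPM in replicates 1, 2 and 3, and the interferon receptor chain Ifnar2 averaged 66.1 ± 11.5 TPM (SD, n = 3). The lowest were Irf9 at 24.2 ± 2.84 TPM and Rela at 18.0 ± 2.02 TPM.

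Of 12 regulators of the turnover of these proteins, 11 reached 1 TPM and 8 reached 10 TPM in every library. The shares of protein-coding genes were 41.2% and 17.1%. March1, a membrane ubiquitin ligase that removes Cd86 from the surface, held 50.43, 31.22 and 41.56 TPM, and its relative March8 averaged 20.4 ± 2.51 TPM, while Cd83, which opposes March1, averaged 9.90 ± 0.979 TPM (SD, n = 3). Cmtm6, which protects Cd274 from degradation, averaged 28.1 ± 3.93 TPM, and its relative Cmtm4 2.25 ± 0.0862 TPM. Hip1r, which directs Cd274 to lysosomes in human cells, was the one below 1 TPM, at 0.11, 0.04 and 0.08 TPM.

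Of the genes known to set Cd274 degradation by the proteasome, the ubiquitin ligase parts Spop, Stub1, Cul3 and Btrc averaged 28.6, 23.6, 23.1 and 3.40 TPM, the kinase Gsk3b 19.7 TPM and the deubiquitinating enzyme gene Cops5 23.4 TPM. Transcript levels of these regulators say nothing of the protein at the surface, which was not measured.

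**Figure D4:**
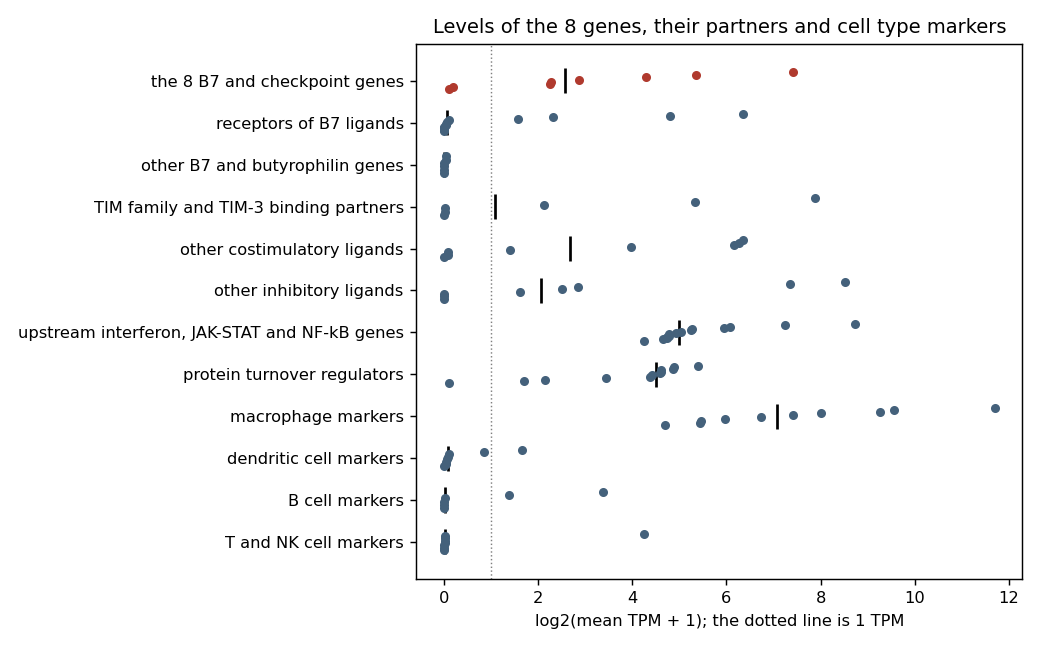
Log2(mean TPM + 1) over the 3 libraries for every gene of each list, with a vertical bar at the list median and a dotted line at 1 TPM. The upstream signalling genes and macrophage markers all lie above 10 TPM, the other B7 and butyrophilin genes lie at or near 0, and the 8 B7 and checkpoint genes (red) spread from near 0 to Cd274 at 169 TPM.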

How the data were processed

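Total RNA-seq of ribosome-depleted cytosolic RNA was taken from 3 libraries of 1 group, numbered as in the labels. Per the README deposited with the files, gene and transcript tables derive from transcriptome alignments to mm10 with annotation M21, while a second transcript table (read-derived here) came straight from the reads. Aligner, quantifier and strandedness of counting were not given in the sources used here.

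Expected counts, as deposited, estimate the reads of each gene or transcript, with shared reads split. The deposited TPM values are normalised by the authors for length and for the total of all rows, and the deposited FPKM values for length and fragments, per the file headers. The credibility bounds of TPM (a score with no fixed total) and the percent of a gene's TPM held by each transcript are also the authors' values, per the file headers. Rows that name no gene (tRNA, spike-in and phiX rows) took 0.418%, 0.248% and 0.165% of counts and were left out.

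Levels are deposited TPM with their mean and SD. Pairs of genes were compared within libraries as log2(TPM + 1), with a pseudocount of 1 that understates differences of low genes. Rounded expected counts were given TMM library sizes (edgeR 4.0.16, R 4.3.3). Libraries were compared by chi-square over all genes with a mean of 10 counts or more, with an adjusted p threshold of 0.05 and a ratio of at least 2 after adding 0.5 counts. The chi-square step was tested on simulated counts that hold counting error only, so that test says nothing of spread among replicates. Counting limits use 3 counts, and intervals are 95% Wilson or exact intervals that cover counting error only. Calculations ran in Python 3.11.15 with pandas 2.3.3, scipy 1.17.1 and numpy 2.4.6, and plots in matplotlib 3.10.9.

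Coordinates and transcript sequences are from GENCODE M21 on GRCm38, and promoters are from RefSeq on GRCm38.p6, where 7 of the 8 genes matched. The 8 genes and the gene lists (106 symbols, all found) were chosen with earlier results of these data known. Named genes are the 8 in every library, the 3 highest and 2 lowest of each other list with all those at 0, and every receptor and turnover regulator. A few genes that this rule names are not reported here. Genes named in addition (Malat1, Neat1, genes overlapping the 8, Cd3d and Cd3g) were chosen after their values were seen. Of the marker lists, sums, counts and defining markers are given. Alternatives were FPKM, posterior mean and read-derived TPM, rescaling to protein-coding genes, other thresholds, pseudocounts, filters and ratios, DESeq2 1.42.0 size factors, and each replicate left out.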

Additional observations from a re-analysis of the deposited data

How the results depend on the processing

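The number of the 8 genes at 1 TPM stayed at 6 with posterior mean TPM and with each replicate left out. The median of the 8 genes was 5.16 TPM, and became 2.14 with read-derived TPM, 17.3 with TPM rescaled to protein-coding genes and 18.1 with read-derived TPM rescaled in that way, an alternative chosen after seeing the data. The number of the 8 at 10 TPM was 3, and 6 with either rescaling, since most TPM lies outside protein-coding genes. Either rescaling raises all protein-coding genes alike, and their share at 10 TPM on those scales is not given here. The number differing between libraries was 0 of the 7 tested, and became 2 with a ratio of at least 1.5 and 5 with no ratio. Of 54 pair differences under alternatives, 50 kept their direction. The exceptions were Icosl minus Cd80, which was -0.11 with read-derived TPM and ran from -0.02 to 0.10 with a replicate left out, and Pdcd1lg2 minus Cd276, which was -0.16 with posterior mean TPM. The cause of these reversals was not tested. The share of Vsir-201 was 76.8% in the alignment-derived and 56.6% in the read-derived table. Depth limits Pdcd1lg2 and Cd276, with 5 to 16 counts a library. No paired comparison of conditions was possible because there is 1 group. With 3 libraries no group was large enough for the test of single outlying samples.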

Other observations

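The genes whose profile over the 3 libraries lay nearest to Cd274, among the 4151 protein-coding genes that average at least 10 TPM, were Tmem68, Fgd4 and Lamp2. Lamp2, a lysosomal membrane protein gene, stood at 873, 628 and 573 TMM-scaled CPM in replicates 1, 2 and 3, beside 1210.1, 864 and 798 CPM for Cd274. The largest log2 difference between the centred profiles was 0.010 for Lamp2, 0.009 for Fgd4 and 0.006 for Tmem68. Nearest to Cd86 were Batf, Svbp and Cd72, with largest differences of 0.008, 0.012 and 0.014. Batf, a transcription factor gene, stood at 55.9, 46.9 and 33.9 CPM beside 85.3, 72.1 and 52.1 CPM for Cd86. With only 3 libraries such closeness is common: 112 genes lay within 0.1 of Cd274 and 78 within 0.1 of Cd86.

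Cd22, a lectin listed here as a B cell marker, the receptor gene Lag3 and the ligand gene Fgl2 were each highest in TPM in replicate 1 and lowest in replicate 2, as was Cd274. These genes were picked after their values were seen.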
